A study of Mus musculus with 12 samples.

Results

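The nuclear genes for the subunits of the respiratory chain and ATP synthase were examined in tibialis anterior muscle of mice lacking the muscle methyltransferase Smyd1. Members were all rows whose symbol began with Nduf followed by a, b, c, s or v, with Uqcr, with Cox4 to Cox8 or with Atp5, together with Sdha, Sdhb, Sdhc and Sdhd. The symbols alone set which rows entered, and the set itself was chosen with earlier results of these data known. The members numbered 92 of the 23923 genes listed. By known role, 36 encode subunits of complex I, 4 of complex II, 8 of complex III, 18 of complex IV and 15 of complex V, 81 subunits in all. The other 11 were 7 assembly factors of complex I (Ndufaf genes), the supercomplex factor Cox7a2l, the Ndufa4 paralog Ndufa4l2, and Atp5s and Atp5sl, which carry an Atp5 symbol without being subunits. Ndufa4 was counted with complex IV, where its protein is now placed.

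These 5 complexes sit in the inner mitochondrial membrane. Complex I takes electrons from NADH and complex II from succinate, both pass them through ubiquinone to complex III, and cytochrome c carries them on to complex IV, which reduces oxygen. Complexes I, III and IV pump protons, and complex V, the ATP synthase, uses the returning protons to make ATP. Oxidative muscle fibres hold more of this machinery than glycolytic ones, and striated muscle uses its own isoforms of several complex IV subunits.

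Whole-transcriptome RNA was sequenced from 12 male mice aged 6 weeks on a mixed C57BL6/J;129S1/SvImJ background, with 1 library per mouse. The 6 controls were Myf6 cre/+; Smyd1 flox/+ and the 6 conditional knockouts (CKO) were Myf6 cre/+; Smyd1 flox/-, and per the study's methods all carried Rosa26 YFP/+. Cre was expressed from the Myf6 locus, which is active in differentiating myofibres, so recombination is directed to fibres and not to other cells of the muscle. Controls were thus not wild type, and CKO mice lacked the other Smyd1 allele in every cell. Values were FPKM, which scale each gene by its transcript length and each library by its mapped fragments, so that levels can be compared between genes.

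The label check rested on Smyd1 itself. Its level was 33.0 to 47.1 FPKM in controls (median 34.9) and 27.8 to 39.9 FPKM in CKO (median 33.5), so the groups overlapped. The log2 difference, CKO minus control, was -0.13 as deposited (SE 0.12, adjusted p = 0.545 in limma) and -0.32 after scaling (SE 0.08, adjusted p = 0.0797), where controls had 36.0 to 42.3 and CKO 26.8 to 36.8 scaled FPKM. A value over the whole transcript does not check the loss of its floxed segment. The 7 fast-fibre markers of this muscle were abundant, with sums between 19900 and 34110 FPKM in controls and between 21960 and 27670 FPKM in CKO. Of the 7, 6 were below 0 in both fits, with medians of -0.33 as deposited and -0.52 after scaling. At an unadjusted p under 0.05, 4 were lower and 1 higher after scaling, where 7.44% and 6.62% of all genes were. As deposited 1 was lower and 1 higher, where 1.76% and 18.1% of all genes were. The higher one was Myh4 in both fits. Myh4, the fast IIB myosin, went the other way, by 0.77 as deposited (adjusted p = 0.0599 in limma) and 0.58 after scaling. None of the 7 passed the adjusted threshold. The 9 slow-fibre markers summed to 33.5 to 66.6 FPKM in controls and 48.0 to 354 FPKM in CKO, where CKO 6 (354), CKO 1 (177) and CKO 3 (114) stood above every control. Their medians were 1.57 as deposited and 1.38 after scaling. At an unadjusted p under 0.05, 7 were higher as deposited (18.1% of all genes) and 6 after scaling (6.62%), with 0 past the adjusted threshold. Myl3 went the other way, by -0.52 and -0.70. Log2 values correlated at 0.944 to 0.972 within groups, no libraries held identical values, and the relative depth read from the smallest non-zero values spanned 1.82-fold.

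The typical gene was higher in CKO as deposited. The median log2 difference over the 12695 genes tested was 0.18, and it was 0.01 after median-ratio scaling, which sets the median ratio of all genes expressed in every mouse to 1. Counts, complex medians and the differences of named members are therefore given on both scales. Of the 92 members, 87 passed the filter on low values (at least 0.1 FPKM in at least 6 mice), 76 of them subunits.

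Subunit mRNAs were abundant in control muscle, and their levels ranged widely within each complex. Complex V held the highest, Atp5b, the catalytic beta subunit, at 461 FPKM (mean of 6 controls), followed by Atp5a1, its alpha partner, at 314 FPKM. In complex I the accessory subunits Ndufb9 (239 FPKM) and Ndufa5 (195 FPKM) led. Complex IV was led by Cox6b1 (224 FPKM) and the muscle and heart isoform Cox7a1 (203 FPKM). Uqcrh, the hinge protein near cytochrome c1, and Uqcrfs1, the Rieske iron-sulfur protein, were highest in complex III at 180 and 118 FPKM. The catalytic pair of complex II, Sdha and Sdhb, stood at 139 and 120 FPKM. Median control levels over all listed subunits were 46.8 FPKM for complex I, 100.0 for complex II, 74.9 for complex III, 54.2 for complex IV and 80.5 for complex V.

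Part of the low listed levels belonged to genes that share sequence with others. Of the 81 subunits, 14 averaged under 10 FPKM over all mice, and in 8 of those 14 at least 10% of the 50-base words of the transcript also occur in other genes' transcripts (GENCODE release 21). The same share was reached by 10 of the 67 higher subunits, and 44 of the 81 shared no word. The authors discarded reads that mapped to several places. Atp5l, a membrane subunit of complex V, shared 68.5% of its words and was listed at 0.466 FPKM in controls. Ndufs5, an accessory subunit of complex I that shared 31.1%, was listed at 0.000265 to 0.000367 FPKM in all 12 mice. Levels of such genes are uncertain, and the part of discarded reads in them was not tested. The testis isoforms Cox6b2, Cox7b2 and Cox8c shared none and were listed at 0 in all 6 controls, and of these Cox6b2 was above 0 in some CKO mice, at up to 0.387 FPKM. Those 3 genes, Ndufs5 and the c-subunit gene Atp5g2 (control median 0.0567 FPKM, CKO median 0) were the 5 members not tested.

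**Figure D1:**
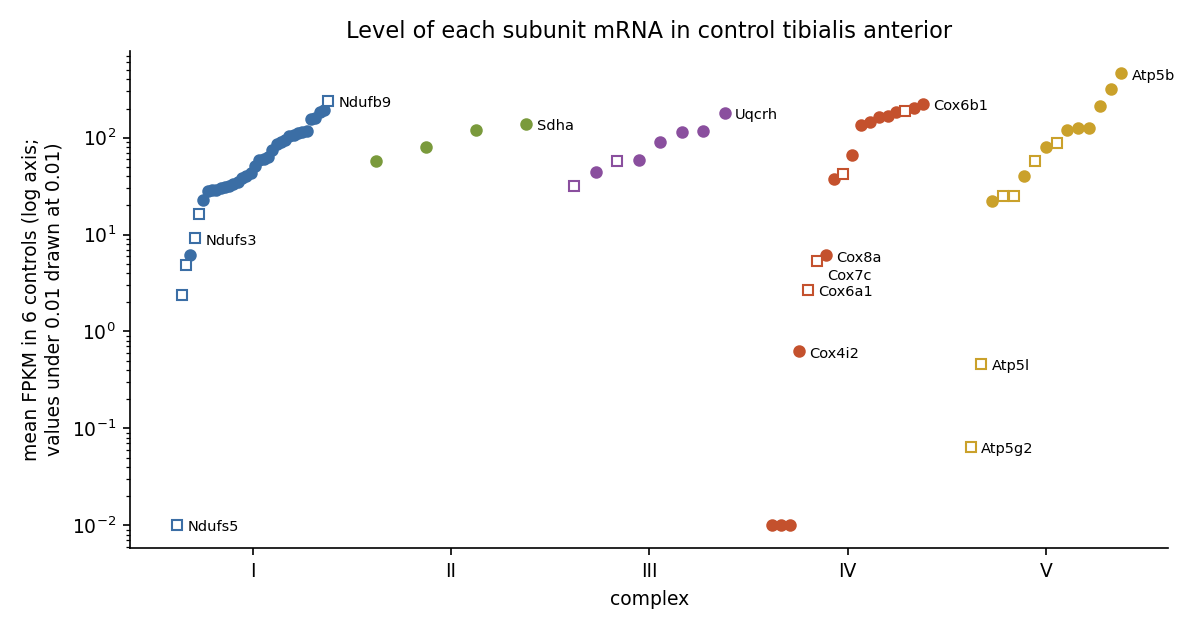
Mean FPKM of each subunit gene in the 6 controls (vertical log axis, values under 0.01 drawn at 0.01), by complex. Open squares are genes that share at least 10% of their 50-base words with other genes. Atp5b at 461 FPKM is the highest, and Ndufs5 and the testis isoforms lie at the floor.

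Across complexes the median subunit lay near 0 as deposited and lower after scaling. As deposited, 39 of 76 tested subunits were lower and 37 higher in CKO, with a median log2 difference of -0.004 (range -0.28 to 0.57). After scaling 69 of 76 were lower, with a median of -0.19 (range -0.47 to 0.39). Measured from the median of all genes tested, the subunits lay at -0.18 as deposited and at -0.20 after scaling. Their median was above that of 21.5% of all tested genes on the deposited scale and of 19.5% on the scaled one. Of all genes tested, 22.1% were lower as deposited and 48.8% after scaling.

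No member passed the threshold over all genes in either fit. With limma's moderated test and Benjamini-Hochberg adjustment, 0 of 87 members reached an adjusted p under 0.05 as deposited, where 2.29% of all genes did, and 0 of 87 after scaling, where 1.47% did. At an unadjusted p under 0.05, 2 members were higher as deposited (Cox8a and Uqcr11), a share below the 18.1% of all genes, and 0 were lower, where 1.76% of all genes were. After scaling 1 member was higher (Cox8a, background 6.62%) and 22 of 87, or 25.3%, were lower (background 7.44%). With quantile normalization in its place, 7 of 87, or 8.05%, were lower (background 6.59%). No member had groups that did not overlap, as deposited (background 2.42%) or after scaling (background 1.53%). Of the 22 lower members, 11 belonged to complex I, 1 to complex II, 3 to complex III, 2 to complex IV and 1 to complex V. The others were the complex I assembly factors Ndufaf4, Ndufaf5 and Ndufaf6 and the non-subunit Atp5sl. These counts leaned on single mice. As deposited 11 members, or 12.6%, were higher without control 1, where 27.2% of all genes were. Cox8a and Uqcr11 then passed the adjusted threshold, 2.30% of members against 9.11% of all genes. As deposited 1 was higher without control 4, control 6, CKO 1 or CKO 2 in turn, where 13.7% to 18.8% of all genes were. The members lower as deposited were 2 without control 3 or CKO 2 and 3 without CKO 5, in fits where 1.53% to 2.54% of all genes were lower. After scaling 39 members, or 44.8%, were lower without CKO 2, where 7.55% of all genes were, and Cox5b, Ndufv2 and Uqcrc1 passed the adjusted threshold, 3.45% of members against 1.41% of all genes. The scaled count was 14, or 16.1%, without CKO 3 (6.35% of all genes) and 13, or 14.9%, without CKO 6 (6.43%). After scaling 2 members were higher without control 1 (8.71% of all genes).

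**Figure D2:**
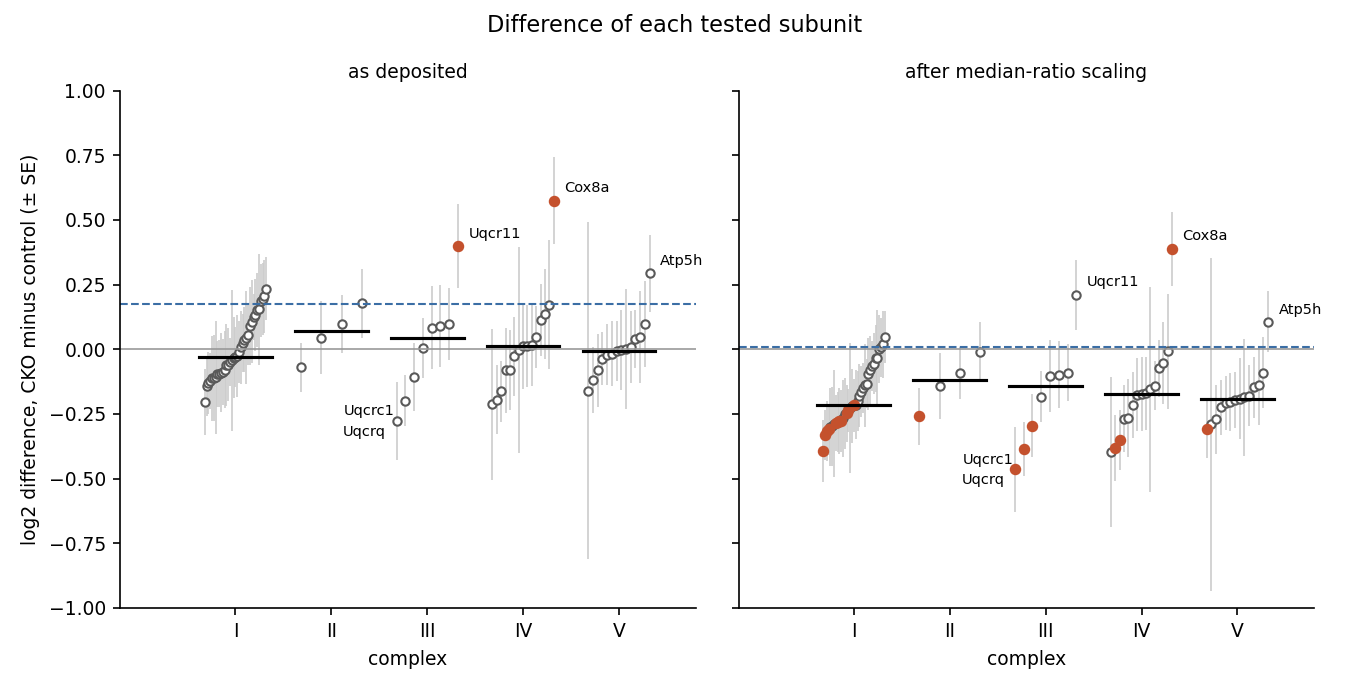
Log2 difference, CKO minus control, of each tested subunit with its SE (grey), by complex, as deposited (left) and after median-ratio scaling (right). Filled points have an unadjusted p under 0.05, black bars are complex medians, and the dashed line is the median of all genes tested, 0.18 on the left and 0.01 on the right.

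Single mice carried much of the spread. Each subunit was centred on its mean over the 12 mice on the log2 scale and the deviations were averaged per complex. Control 1 stood highest as deposited in complexes I (0.45), III (0.42), IV (0.45) and V (0.35), and was the top mouse for 50 of 76 subunits. In complex I the other 5 controls lay between -0.17 and 0.01. Among CKO mice, CKO 2 (0.26), CKO 5 (0.13) and CKO 1 (0.08) were above the middle in complex I, and CKO 3 (-0.11), CKO 4 (-0.14) and CKO 6 (-0.22) below it. The CKO group held both high and low mice, while 5 controls lay close together below control 1. Fibroblast markers summed to 654 FPKM in control 1 against 170 to 217 FPKM in the other controls and 233 to 387 FPKM in CKO, and macrophage markers to 26.9 FPKM against 6.80 to 13.1 and 10.1 to 15.2 FPKM. Control 1 also had the highest fast-fibre (34110 FPKM) and blood (49.3 FPKM) marker sums of the 12 mice. It had the lowest Schwann sum (3.62 FPKM), and its endothelial sum of 26.3 FPKM lay inside the control range of 24.4 to 35.7 FPKM. The part of these cells and fibres in the levels of control 1 was not tested.

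After scaling the order of mice changed in part. Complex I deviations were -0.03 to 0.31 in controls (median 0.08) and -0.34 to 0.24 in CKO (median -0.14). CKO 2, at 0.24, stood inside the control range, and CKO 5, at 0.03, did so too. The other 4 CKO mice lay below every control in complex I. CKO 6 had the lowest value of the 12 mice in all 5 complexes except complex III, where CKO 3 (-0.26) and CKO 6 (-0.26) were near each other, and was lowest for 42 of 76 subunits. CKO 6 also had the highest slow-fibre marker sum. CKO 1 and CKO 3, with slow-fibre sums of 177 and 114 FPKM, were at -0.10 and -0.21 in complex I. CKO 4, with a slow-fibre sum of 50.1 FPKM inside the control range, was at -0.18. CKO 2 and CKO 5, with sums of 55.2 and 48.0 FPKM also inside it, were at 0.24 and 0.03. The part of fibre type in these levels was not tested. The fast-fibre markers had a scaled median of -0.52 beside -0.19 for the subunits, and their part was not tested either. In bulk muscle, fewer fibres of a type and less RNA per fibre cannot be told apart.

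**Figure D3:**
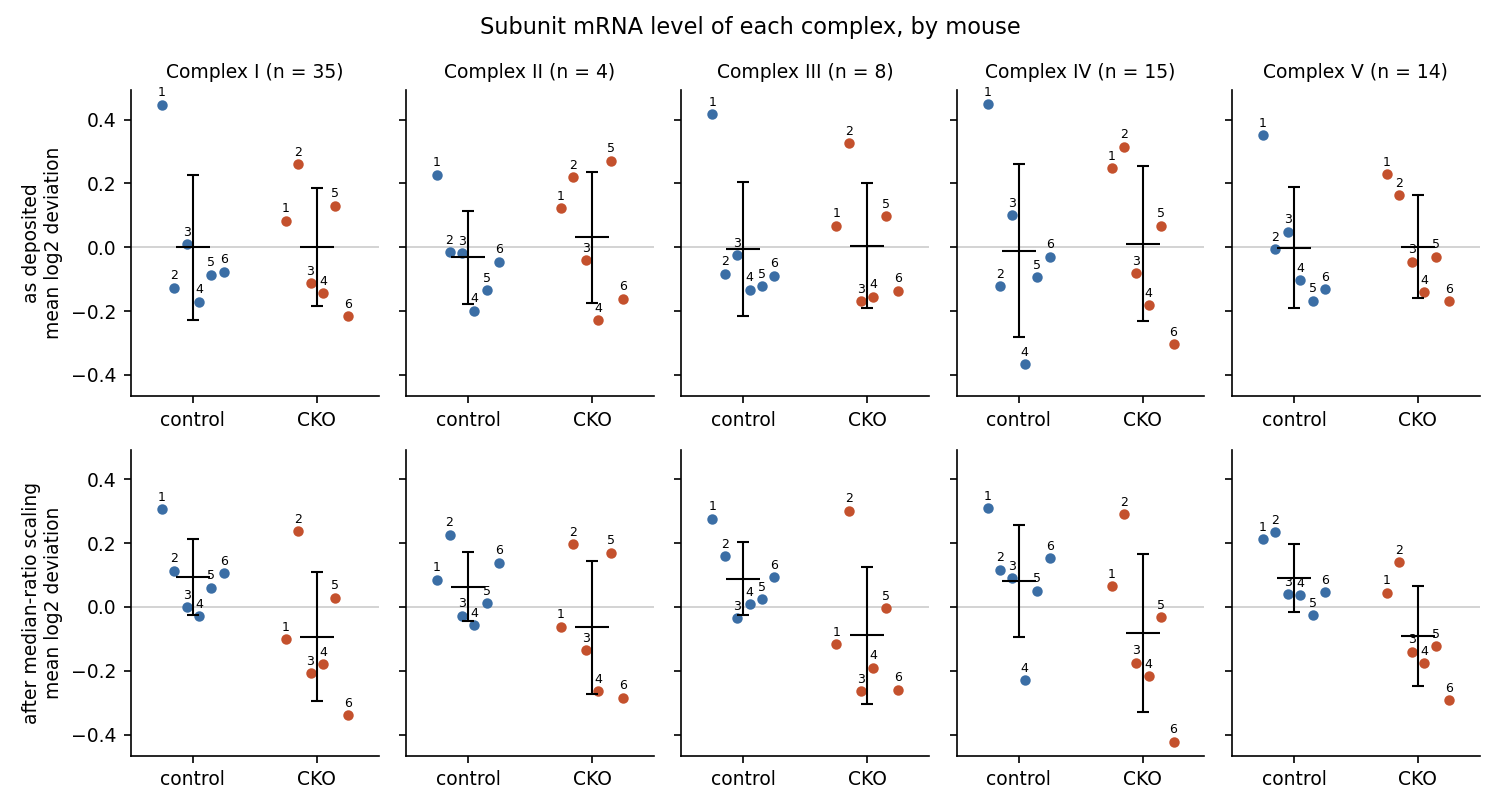
Mean log2 deviation of the tested subunits of each complex in each mouse (points, numbered by mouse), with group mean ± SD (n = 6), as deposited (top) and after median-ratio scaling (bottom). Control 1 stands highest in 4 of the 5 upper panels, and CKO 6 lies at or near the bottom of every lower panel.

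Subunits varied together between mice of a group. On scaled log2 values, with each gene's group means removed, the median correlation of a subunit with the mean of the other subunits of its complex was 0.753 in complex I, 0.824 in complex II, 0.731 in complex III, 0.721 in complex IV and 0.584 in complex V. Against the mean of all subunits, 65 of 76 had a correlation over 0.5, as did 10.1% of the other 12619 genes tested. The exceptions included Cox6a2, the muscle isoform in complex IV, at -0.15 within its complex, and Atp5l at -0.63. These correlations are across 12 libraries that share depth and composition, and are given as a description.

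The stretches just upstream of the members' starts were searched for 4 short motifs of factors known to act on mitochondrial genes. RefSeq windows (GRCm38.p6) of 250 bases before to 50 after the start were held for 76 of the 92 members, 82 windows in all, and both strands were read. The NRF1 letters CGCANGCG, which can match both strands at 1 place, stood in 40.2% of member windows and 8.21% of all 32851 windows. The YY1 letters AAGATGGC stood in 14.6% against 2.75%, the estrogen-related receptor letters AAGGTCA in 9.76% against 4.72%, and the ETS letters CCGGAAGT in 6.10% against 3.89%. The 32851 windows were not matched to the members in level or base composition. A match is a description of the letters and not a binding site. Printed here are 70 bases before and 10 after the start of Sdha, with 2 NRF1 matches, of Uqcr11 and Cox8a, the members higher in CKO at an unadjusted p under 0.05, and of Cox8b, the muscle partner of Cox8a, which were chosen after their values were seen. Capitals mark matches to these 4 motifs.
Sdha (chr13:74350231-74350310, minus strand): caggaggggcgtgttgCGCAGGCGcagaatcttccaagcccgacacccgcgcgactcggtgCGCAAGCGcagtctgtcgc
Uqcr11 (chr10:80406812-80406891, minus strand): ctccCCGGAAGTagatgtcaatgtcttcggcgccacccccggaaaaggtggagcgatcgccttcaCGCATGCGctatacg
Cox8a (chr19:7217607-7217686, minus strand): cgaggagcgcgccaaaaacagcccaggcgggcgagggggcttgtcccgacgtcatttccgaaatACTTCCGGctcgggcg
Cox8b (chr7:140900437-140900516, minus strand): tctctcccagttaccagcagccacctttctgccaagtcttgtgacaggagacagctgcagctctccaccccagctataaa
Cox8b holds none of the 4 in this stretch. Cox8a has an ETS match next to its start and Uqcr11 an ETS and an NRF1 match. The windows of Atp5h, Ndufs3 and Uqcrh also held an ETS match. Their differences were 0.29, 0.20 and 0.10 as deposited and 0.11, 0.02 and -0.09 after scaling. The part of these letters in the differences was not tested.

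The subunits of complex I were mostly lower after scaling. Its 35 tested subunits had a median log2 difference of -0.03 as deposited (20 of 35 lower) and -0.22 after scaling (31 of 35 lower). This was the lowest of the 5 scaled medians with all mice, while without control 1 complex V was lower (-0.19 against -0.16), and also without control 3 (-0.21 against -0.20). Without CKO 5 complexes IV (-0.24) and V (-0.22) were both lower than complex I (-0.20). The core subunits that carry the redox centres were examined first. In the module that oxidizes NADH, Ndufv2, an iron-sulfur protein, ran from 106 to 149 FPKM in controls (median 109) and from 91.5 to 127 FPKM in CKO (median 103). Its log2 difference was -0.14 as deposited and -0.33 after scaling (SE 0.10, adjusted p = 0.119 in limma), with CKO 2 (123 scaled FPKM) the only CKO mouse inside the control range of 117 to 133. Ndufs1, the large iron-sulfur subunit of the same module, was at 110 to 128 scaled FPKM in controls and 78.8 to 112 in CKO, with a log2 difference of -0.12 as deposited and -0.31 after scaling (SE 0.10, adjusted p = 0.149 in limma). Only CKO 2 among the CKO mice reached the range of the controls. Ndufv1, the third of this module, binds NADH and differed by 0.12 as deposited and -0.06 after scaling.

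In the quinone-binding module, Ndufs7 and Ndufs8, which hold iron-sulfur clusters near the quinone site, differed by -0.13 and -0.08 as deposited and by -0.32 and -0.27 after scaling. Ndufs3, of the same module, differed by 0.20 as deposited and 0.02 after scaling (8.11 to 12.5 FPKM in controls, 7.67 to 12.3 FPKM in CKO), and it shared 35.8% of its words with other genes.

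Among the 28 tested accessory subunits of complex I the scaled median was -0.21, with 25 below 0 and 7, or 25%, lower at an unadjusted p under 0.05 (7.44% of all genes). As deposited the median was -0.02. Ndufb9, the highest of them, was at 210 to 328 FPKM in controls and 188 to 258 FPKM in CKO, with a difference of -0.10 as deposited and -0.28 after scaling (SE 0.11, adjusted p = 0.239 in limma). It shared 23.4% of its words with 1 other gene. Ndufa5 differed by 0.02 as deposited and -0.17 after scaling. Ndufa1, a small membrane subunit needed for assembly of the complex, had the highest difference of complex I, 0.23 as deposited (adjusted p = 0.301 in limma) and 0.05 after scaling, from 23.6 to 36.6 FPKM in controls and 28.8 to 40.9 FPKM in CKO. The 7 assembly factors, which build the complex without staying in it, were low in level (summed 29.7 to 46.1 FPKM in controls) and had a scaled median of -0.18.

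Complex II is the smallest of the 5. Its medians were 0.07 as deposited and -0.12 after scaling over 4 subunits, the scaled one running from -0.17 without CKO 2 or CKO 5 to -0.05 without CKO 4, and no subunit was past an unadjusted p of 0.05 as deposited. Sdha, the flavoprotein that oxidizes succinate, was at 131 to 149 FPKM in controls and 107 to 154 FPKM in CKO. Its difference was -0.07 as deposited and -0.26 after scaling (SE 0.11, adjusted p = 0.302 in limma). Sdhb, the iron-sulfur partner of Sdha in the catalytic dimer, had 101 to 160 FPKM in controls and 109 to 165 FPKM in CKO, and differed by 0.18 as deposited and -0.01 after scaling. The membrane anchors Sdhc and Sdhd differed by 0.10 and 0.04 as deposited and by -0.09 and -0.14 after scaling.

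The subunits of complex III lay on both sides of 0. Medians over its 8 subunits were 0.04 as deposited and -0.14 after scaling, and the differences ran from -0.28 to 0.40 as deposited. Uqcrc1, a core protein facing the matrix, was the member with the smallest p of the 87 after scaling, with 109 to 131 scaled FPKM in controls and 77.4 to 119 in CKO (log2 difference -0.39, SE 0.11, adjusted p = 0.0892 in limma). Every CKO mouse except CKO 2 was below the lowest control. As deposited its groups ran from 107 to 122 FPKM and from 85.3 to 122 FPKM, with a difference of -0.20 (adjusted p = 0.274). Its fellow core protein Uqcrc2 differed by 0.005 as deposited and by -0.18 after scaling.

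The small subunits of complex III went both ways. Uqcrq, which sits beside cytochrome b, had 30.7 to 52.3 FPKM in controls and 29.8 to 44.8 FPKM in CKO, and differed by -0.28 as deposited (adjusted p = 0.312 in limma) and -0.47 after scaling (SE 0.16, adjusted p = 0.202). Uqcr11, a very small subunit of the complex, was at 22.2 to 48.0 FPKM in controls (median 29.9) and at 32.6 to 52.6 FPKM in CKO (median 38.4). The highest control was control 1, and every CKO mouse lay above the other 5 controls. Its difference was 0.40 as deposited (SE 0.16, adjusted p = 0.191 in limma) and 0.21 after scaling (adjusted p = 0.542). Without control 1 the deposited difference was 0.53 (adjusted p = 0.0232). Uqcr11 shared 10.9% of its words with 1 other gene. Uqcrh, with a difference of 0.10, and Uqcrfs1, with -0.11, were nearer 0 as deposited and both lower after scaling, at -0.09 and -0.30.

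Complex IV held Cox8a, the member that differed most as deposited, while Uqcrq of complex III (-0.47) differed most after scaling. Cox8a, the isoform of subunit VIII found in most tissues, was at 9.84 FPKM in control 1 and 4.69, 5.29, 5.38, 5.73 and 5.74 FPKM in the other controls. In CKO it was at 6.36 FPKM in CKO 4 and at 8.63, 9.14, 9.27, 9.41 and 11.1 FPKM in the others. All CKO mice were thus above the 5 lower controls, and control 1 lay within the CKO range. The log2 difference was 0.57 as deposited (SE 0.17, adjusted p = 0.0836 in limma) and 0.39 after scaling (SE 0.14, adjusted p = 0.219). Its p stayed under 0.05 unadjusted in 21 of 21 alternatives of the deposited fit, and without control 1 the difference was 0.72 with an adjusted p of 0.00516.

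The other subunits of complex IV lay below 0 after scaling. Medians were 0.01 as deposited and -0.17 after scaling over 15 tested subunits, with 14 of 15 below 0 after scaling. Cox5b, a zinc-binding nuclear subunit, ran from 38.8 to 55.4 FPKM in controls (median 39.3) and from 30.4 to 52.8 FPKM in CKO (median 34.4). It shared 25.9% of its words with 1 other gene. Control 1 and CKO 2 were each the highest of their group, well apart from the rest, and the other 5 CKO mice lay below every control. The difference was -0.19 as deposited (adjusted p = 0.421 in limma) and -0.38 after scaling (SE 0.13, adjusted p = 0.175), and without CKO 2 the scaled difference was -0.50 (adjusted p = 0.0126). Cox6a2 had 141 to 189 FPKM in controls and 116 to 179 FPKM in CKO, with a difference of -0.16 as deposited and -0.35 after scaling (SE 0.12, adjusted p = 0.174 in limma). Cox7c, a small subunit listed at a low level, differed by -0.21 as deposited and -0.40 after scaling, with an SE of 0.29 in each. It shared 27.9% of its words with other genes. Cox6b1 and Cox4i1, a subunit that binds ATP, differed by 0.02 and 0.01 as deposited and by -0.17 each after scaling. Cox7a2l, which joins complexes III and IV, was at 14.4 to 24.7 FPKM in controls and 16.4 to 30.1 FPKM in CKO and differed by 0.22 as deposited and 0.03 after scaling.

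Isoform pairs compare the balance of interchangeable subunits within a mouse, and scaling cancels in them apart from the added 0.1 FPKM. Ratios were taken on the log2 scale for 5 pairs and compared by a two-sided exact permutation test over the 924 assignments of mice, whose smallest p is 0.00216, and p-values were adjusted over the 5 pairs. The pairs were chosen with earlier results of these data known. For Cox8b over Cox8a, the muscle and the general form of subunit VIII, control mice had 18.2 to 26.4 times (median 23.2) and CKO mice 13.1 to 20.0 times (median 15.1) as much of the muscle form. All 6 CKO mice were below the control median and 5 of 6 below the lowest control. The log2 ratio was 4.46 ± 0.22 in controls and 3.94 ± 0.22 in CKO (SD, n = 6), a difference of -0.53 (exact p = 0.00649, adjusted p = 0.0325). With a mouse left out the adjusted exact p ran from 0.0217 to 0.065, above 0.05 without CKO 1, 2, 3, 5 or 6 in turn, and it was 0.13 after quantile normalization. Cox8b itself differed by 0.05 as deposited and -0.14 after scaling, from 110 to 179 FPKM in controls and 122 to 152 FPKM in CKO.

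The other pairs did not pass the test. Cox6a2 over Cox6a1 was 6.00 ± 0.69 in controls and 5.67 ± 0.28 in CKO (SD, n = 6) on the log2 scale, a difference of -0.34 (exact p = 0.299, adjusted p = 0.541), and without control 1, the lowest control, it was -0.55 (exact p = 0.0411, adjusted p = 0.103). Cox7a1 over Cox7a2 differed by -0.12 (exact p = 0.325, adjusted p = 0.541). Cox4i2, the isoform known from lung, was at 0.117 to 1.21 FPKM in controls, and its ratio to Cox4i1 differed by -0.02 (exact p = 0.976) with a control SD of 0.89. Atp5g1 and Atp5g3 encode the same mature c subunit behind different import sequences, and their ratio differed by 0.01 (exact p = 0.955). For the muscle and heart isoforms the median control ratio over the general form was 68.0 for Cox6a2, 23.2 for Cox8b and 5.58 for Cox7a1, so the muscle form was listed as the more abundant of each pair in every mouse. Cox6a1, at 1.28 to 5.38 FPKM in controls, shared 12.3% of its words with 1 other gene. The size of the Cox6a2 ratio is thus uncertain.

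**Figure D4:**
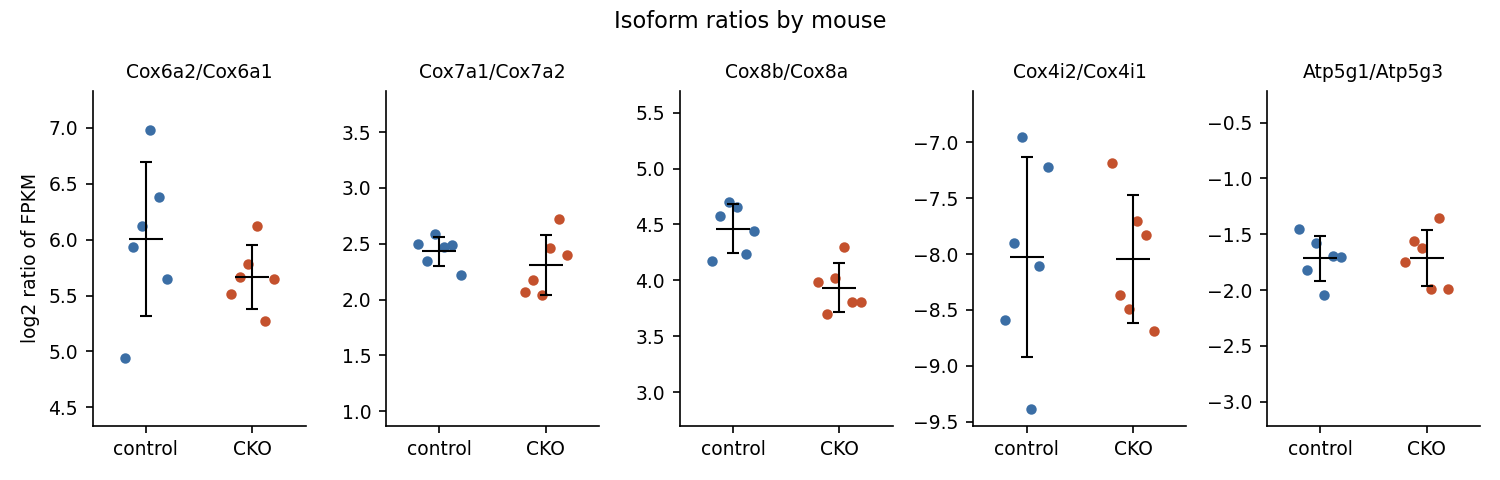
Log2 ratio of FPKM for 5 isoform pairs in each mouse (points), with group mean ± SD (n = 6), each panel spanning the same 3 log2 units. In Cox8b over Cox8a the CKO mice (3.70 to 4.30) lie lower than the controls (4.17 to 4.70), while the groups overlap widely in the other panels.

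Complex V subunits lay close together, with the middle 50% of deposited differences between -0.03 and 0.03. Over 14 tested subunits the median was -0.01 as deposited and -0.19 after scaling, with 13 of 14 below 0 after scaling. In the catalytic head, Atp5b was at 422 to 526 FPKM in controls and 380 to 538 FPKM in CKO, a difference of -0.01 as deposited and -0.20 after scaling (adjusted p = 0.458 in limma). Atp5a1 differed by -0.08 and -0.27. Atp5c1, the rotating gamma subunit of the central stalk, was at 209 to 243 scaled FPKM in controls and 151 to 235 in CKO, with a difference of -0.12 as deposited and -0.31 after scaling (SE 0.11, adjusted p = 0.211 in limma). CKO 2 alone was inside the control range for Atp5c1 after scaling.

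In the stalk and membrane parts of complex V, Atp5h, subunit d of the peripheral stalk, was at 17.4 to 35.3 FPKM in controls (median 23.0) and 25.1 to 37.7 FPKM in CKO (median 29.0). It differed by 0.29 as deposited (SE 0.15, adjusted p = 0.290 in limma) and 0.11 after scaling, and shared 47.9% of its words with other genes. Atp5j, another peripheral stalk subunit, differed by -0.04 and -0.22. Atp5g1 and Atp5g3 of the c-ring, which turns as protons pass, differed by 0.001 and -0.005 as deposited and by -0.19 each after scaling. The non-subunit Atp5sl differed by -0.22 as deposited and -0.40 after scaling (SE 0.12, adjusted p = 0.114 in limma).

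Across the 76 subunits the log2 difference went with transcript length, at a Spearman rho of -0.357 as deposited and -0.362 after scaling, against 0.0501 and 0.048 across 11663 tested genes with a length. Subunit transcripts were short, with a median of 870 bases against 3193 for those genes. These are correlations across genes, which are not independent replicates. The 3 members with the highest deposited differences, Cox8a, Uqcr11 and Atp5h, had transcripts of 550, 445 and 682 bases. The part of length in the differences was not tested.

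Genes that work with the complexes but carry other symbols were given for comparison. Of 35 tested assembly factors outside the Nduf symbols, 1 was higher and 1 lower at an unadjusted p under 0.05 as deposited, where 18.1% and 1.76% of all genes were. After scaling 0 were higher and 6 lower, against 6.62% and 7.44% of all genes. The medians were 0.05 and -0.13. Ttc19, an assembly factor of complex III, was the single one of them past the adjusted threshold, after scaling (-0.47, SE 0.10, adjusted p = 0.0371 in limma), from 11.8 to 17.4 FPKM in controls and 9.89 to 14.0 FPKM in CKO. The complex I assembly factor Tmem126b was higher as deposited (0.39, adjusted p = 0.195), and Cox11, which delivers copper to complex IV, was lower after scaling (-0.40, adjusted p = 0.157). Among 7 electron carriers and partners, 0 passed an unadjusted p of 0.05 as deposited, where 18.1% of all genes were higher and 1.76% lower. After scaling 1 was lower (7.44% of all genes), Cycs, cytochrome c itself (-0.45, adjusted p = 0.0709 in limma). Cyc1, the cytochrome c1 of complex III that has another symbol pattern, differed by -0.07 as deposited and -0.25 after scaling, and Etfb by 0.22 and 0.03.

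For 9 genes taken as measures of mitochondrial mass, the medians were 0.02 as deposited and -0.17 after scaling, beside -0.004 and -0.19 for the subunits. Vdac1, the outer membrane channel, was at 258 to 275 FPKM in controls and 207 to 331 FPKM in CKO, with a scaled difference of -0.37 (adjusted p = 0.186 in limma). Vdac3 differed by -0.25 after scaling (adjusted p = 0.323), and Tomm20, a receptor of protein import, by 0.44 as deposited (adjusted p = 0.0879) and 0.26 after scaling. The subunits encoded by mitochondrial DNA were not analysed here, since none of 26 symbols searched for them matched a row.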

How the data were processed

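Tibialis anterior RNA of 6 control and 6 Smyd1 CKO mice was rRNA-depleted and sequenced on Illumina HiSeq. The deposited values are FPKM: per the submitters' processing notes and the study's methods, the authors aligned trimmed reads with TopHat2 2.0.10 to mm9, discarded multi-mapping reads and ran Cufflinks 2.1.1. The annotation is not given in the sources used here. The fragment depth is unknown, so no counting error is given. Each file held 23950 rows, and 27 with a calendar date in place of a gene name were dropped.

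Differences were fitted with limma 3.58.1 (R 4.3.3, intensity trend) on log2(FPKM + 0.1), which understates changes of low genes, over genes at 0.1 FPKM or more in at least 6 mice, as deposited and after median-ratio scaling, with Benjamini-Hochberg adjustment over all genes tested. The fit was tested on simulated data. Complex medians are descriptions. Isoform ratios used an exact permutation test. Alternatives were a pseudocount of 1, other filters and normalizations, sample weights, a replicate block and leaving mice out. Named genes were the 2 highest of each complex, the 3 with the smallest p in each fit, any member past a threshold or with separated groups, isoform pairs and untested members. Genes outside this rule (such as Ndufv1, Ndufs7, Ndufs8, Uqcrc2, Cox7a2l, Atp5l and Atp5sl) were named after their values were seen. A result that the naming rule covers is not reported here. Members, lists and pairs were chosen with earlier results of these data known. Nothing beyond 1 library per mouse shows how mice were housed or handled, so p-values measure the spread between these mice. Transcript words and lengths came from GENCODE release 21, where all 92 members matched. Promoter windows came from RefSeq (GRCm38.p6). This build, other than the authors', was used for names, sequence and length only.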

Additional observations from a re-analysis of the deposited data

Results flagged for a closer look

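Control 1 stood far above the other 5 controls for many members. By Dixon's criterion for 6 samples, 17 of 94 groups of values checked had a sample far from the rest. Control 1 was that sample in 16 of the 17. Chance gives about 1 in 20 for independent groups. These groups came from the same mice and from subunits that varied together, so 1 high library was counted many times. The count is a description and not an excess over that rate. Its mean log2 deviation as deposited was 0.447 in complex I and 0.418 in complex III. In complex I it was the high mouse for Ndufb9 (328 FPKM), Ndufs3 (12.5 FPKM) and Ndufv2 (149 FPKM), and in complex II for Sdhc (69.1 FPKM). In complex III it was so for Uqcrh (265 FPKM), Uqcrfs1 (146 FPKM) and Uqcr11 (48.0 FPKM). In complex IV it was so for Cox6b1 (344 FPKM), Cox7a1 (316 FPKM), Cox8a (9.84 FPKM), Cox5b (55.4 FPKM), Cox6a1 (5.38 FPKM), Cox7a2 (55.7 FPKM) and Cox4i1 (235 FPKM). CKO 2 was the remaining one, with Cox5b at 52.8 FPKM. No complex mean was marked after median-ratio scaling, and no isoform ratio was marked.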

How the results depend on the processing

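As deposited, the count of members higher at an unadjusted p under 0.05 was 2. It was 1 after median-ratio scaling (6.62% of all genes were higher) and 6 with sample weights (29.2%). It was 6 with control 1 and CKO 2 left out together, chosen after seeing the data (27.8%). With each mouse left out it was 1 to 11, the 11 without control 1 (27.2%). The count lower was 0, and it was 22 with median-ratio scaling (7.44% of all genes) and 7 with quantile normalization (6.59%). It was 2 with sample weights (2.5%), 2 with both mice left out (1.64%), and 0 to 3 with each mouse left out. Adjusted calls numbered 0, and 2 with sample weights (Cox8a and Uqcr11, 11.9% of all genes). They were 2 with both mice left out (the same genes, 9.59%), and 0 to 2 with each mouse left out, the 2 without control 1 (9.11%). After scaling, 22 members were lower. That count was 35 with both mice left out (8.87% of all genes). With each mouse left out it was 13 to 39, 39 without CKO 2 (7.55%), 14 without CKO 3 (6.35%) and 13 without CKO 6 (6.43%). Higher members were 1 to 2 there. Adjusted calls after scaling were 3 with both mice left out (Cox5b, Ndufv2 and Uqcrc1, 2.55% of all genes) and 3 without CKO 2 (the same genes, 1.41%). Their range was 0 to 3 over each mouse left out. The complex medians moved by more than 1 SD between mice only with median-ratio scaling, in complex II to -0.12 and in complex V to -0.19. With quantile normalization they were nearer 0 than after median-ratio scaling, at -0.08 in complex I, 0.03 in II, 0.004 in III, -0.03 in IV and -0.07 in V. The size of the scaled differences thus depended on the normalization. With each mouse left out, the deposited medians ran from -0.09 to 0.07 in complex I, 0.01 to 0.15 in II, -0.03 to 0.14 in III, -0.07 to 0.12 in IV and -0.05 to 0.05 in V. The scaled ones ran from -0.28 to -0.16, -0.17 to -0.05, -0.23 to -0.10, -0.27 to -0.11 and -0.25 to -0.14, below 0 in every case. With both mice left out complex V had the lowest scaled median (-0.25 against -0.22 in complex I). Cox8b over Cox8a stayed between -0.60 and -0.48 with each mouse left out, with exact p up to 0.013 (0.065 adjusted over the 5 pairs), and was -0.38 with quantile normalization (exact p = 0.026, 0.13 adjusted), and Cox6a2 over Cox6a1 ranged from -0.55 to -0.14. The cause of these shifts was not tested.

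With the replicate number as a block, 3 members were higher (19.2% of all genes) and 0 lower (1.97%) as deposited. After scaling 1 was higher (6.73%) and 23 were lower (7.46%). Adjusted calls numbered 0 in both fits (2.46% and 1.37% of all genes). The exact sign-flip test on same-number differences gave p = 0.031 (0.156 adjusted over the 5 pairs) for Cox8b over Cox8a. Same-number mice correlated in their deviations at -0.0861 to 0.164, with 2 of 6 pairs over 0.1. The mean was 0.0404 for the same number and -0.00879 for other numbers. Such correlations cannot decide whether the numbers pair the mice. Of the 12 mice, 5 correlated best with their own number. The FPKM files hold no counts, which limits statements on genes of low level such as Atp5l.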
